A study of Mus musculus with 11 samples.

Results

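The genes described here encode the ligands, receptors, extracellular antagonists, latent binding proteins and intracellular mediators of transforming growth factor beta (TGF-beta), activin and bone morphogenetic protein (BMP) signalling, together with Bambi and the Id genes. They were chosen by gene symbol as members of the pathway, with earlier results of these data known. The 46 symbols matched 47 of the 46983 genes counted, because 2 overlapping genes on the same strand carry the symbol Ltbp4. All 47 passed the filter on low counts and are among the 19366 genes tested. Expression was measured by RNA sequencing of whole aortic valves of wild type mice (strain not given), 1 mouse per library, 48 hours after surgery. The young mice were aged 3 to 4 months and the aging mice 16 to 18 months. In injured mice a wire passed in vivo had damaged the endothelial layer of the valve, and control mice had sham surgery, so that no group was free of surgery. The 4 groups were young sham (3 mice), young injured (3 mice), aging sham (3 mice) and aging injured (2 mice). 

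TGF-beta, activins and BMPs are secreted dimers that bring together type I and type II serine/threonine kinase receptors, which then phosphorylate Smad proteins that enter the nucleus with Smad4. TGF-beta and activin signal mainly through Smad2 and Smad3, and BMPs through Smad1, Smad5 and Smad9, with the Id genes as direct targets. TGF-beta is secreted in a latent form held in the matrix by latent TGF-beta binding proteins, and follistatin, noggin, gremlin and chordin bind ligands outside the cell. In the aortic valve these pathways take part in cushion formation in the embryo, in the conversion of interstitial cells to myofibroblasts and in calcification.

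Library totals ranged from 27124000 to 36353474 counts, and values are CPM (counts scaled to a common library size, with a TMM correction for RNA composition) unless another unit is named. The number of detected genes was lowest in young sham 1 (18641), aging injured 1 (18642) and aging injured 2 (19015), and was 20411 to 22533 in the other 8 libraries. By Xist and Y-linked counts, females and males numbered 1 and 2 in young sham, 2 and 1 in young injured, 2 and 1 in aging sham, and 2 and 0 in aging injured, so sex was not balanced. Fibroblast, valve interstitial and endothelial markers were detected in every library, and so were cardiomyocyte markers, with summed levels from 7195 to 31230 CPM. A gene is said to have risen or fallen only at a Benjamini-Hochberg adjusted p under 0.1 with a fold change over 2, the thresholds of the series' own design text. Adjusted p-values are from edgeR's quasi-likelihood test over all 19366 genes unless another tool is named, errors of log2 fold changes are SE, and ratios carry 95% intervals. In whole valves, fewer cells of a type and less RNA per cell cannot be told apart.

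Levels were compared between genes as the authors' deposited RPKM, which divides by gene length and was available for 45 of the 47 genes, all but Bmp7 and Grem1. The latent binding proteins and Fstl1 were the most abundant. Ltbp4, which binds elastic fibres as well as TGF-beta, averaged 382 RPKM over the 11 libraries, and the smaller gene of the same symbol nested inside it averaged 415. Fstl1, a secreted follistatin-like glycoprotein of mesenchymal cells, averaged 256 RPKM, with 178 in the lowest library and 381 in the highest. Ltbp3 followed at 132 RPKM, Id3 at 95.01, the TGF-beta type II receptor Tgfbr2 at 81.2, Id2 at 74.7 and Ltbp2 at 73.0. Of the 45 genes, 35 stood above the median of 6.95 RPKM over the 13526 genes in that table. At the other end were Nog, the BMP antagonist noggin, at 0.452 RPKM and the activin receptor Acvr2b at 0.811 RPKM. By role, the median of the gene means was 132 RPKM for latent binding proteins, 69.1 for Id genes, 15.4 for ligands, 13.3 for Smads, 10.9 for receptors and 9.13 for antagonists.

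**Figure D1:**
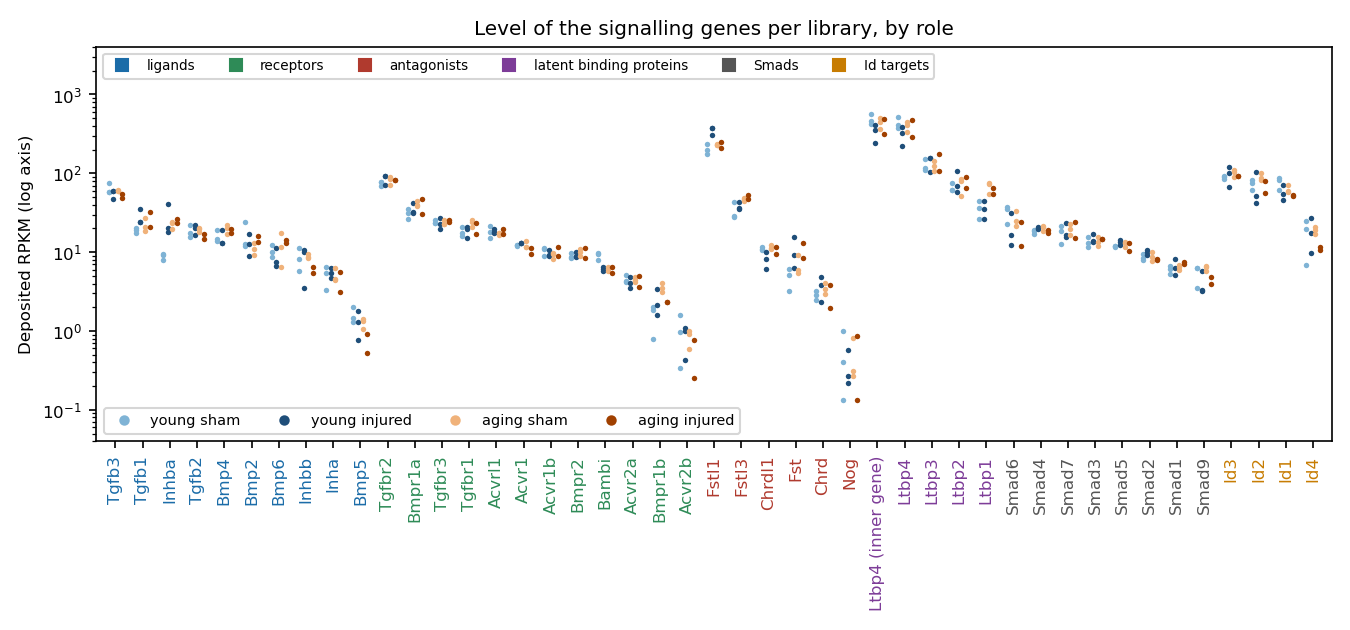
Deposited RPKM of 45 signalling genes on a log axis, grouped by role and ordered by mean level within each role, with 1 point per library coloured by group (11 libraries). Ltbp4 and Fstl1 lie at the top, Nog and Acvr2b at the bottom, and the young sham points of Inhba lie below those of the other 3 groups.

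In 3 of the 6 classes compared, TGF-beta ligands, type II receptors and latent binding proteins, 1 gene held over 50% of the RPKM in every library. For the latent binding proteins the larger Ltbp4 gene was used and the nested one left out. Tgfb3 made up 51.2% to 67.2% of the summed RPKM of the 3 TGF-beta ligands in every library, ahead of Tgfb1 (17.1% to 30.6%) and Tgfb2 (15.7% to 22.1%). The gene Ttll5 overlaps Tgfb3, so part of its reads may belong to the neighbour. Tgfbr2 held 81.9% to 87.8% of the 4 type II receptors, and Bmpr1a, a BMP type I receptor, held 30.6% to 42.5% of the 6 type I receptors. Among the BMP ligands, Bmp4 and Bmp2 held 26.6% to 50.5% and 24.0% to 46.0%. Over these classes the group means were widest apart for the share of Inhba among the activin and inhibin subunits, with means of 39.6% in young sham, 65.1% in young injured, 61.6% in aging sham and 70.8% in aging injured valves. The beta B subunit Inhbb took 37.5% in young sham and 16.8% to 24.3% in the other group means. These shares have no test of their own.

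After injury in young valves 1 of the 47 genes rose and 0 fell, against 0.418% of all genes tested that passed in either direction (78 higher and 3 lower). The gene that rose was Inhba. Fstl1 and Bambi also had an adjusted p under 0.1, with fold changes under 2, and by that p alone 3 of the 47 passed, against 0.687% of all genes tested. The median log2 fold change was -0.01 over the 47 genes and 0.01 over all genes tested, and 23 genes were higher and 24 lower. At an unadjusted p under 0.05, 9 of the 47 passed, against 1780 of the 19366 genes tested. The 95% interval lay inside a 2-fold change in either direction for 32 of the 47, and reached beyond it for the rest. Young injured and young sham libraries did not overlap for 4 genes that were higher (Tgfb1, Inhba, Fstl1 and Smad4), where 9.54% of all genes did the same, and for 4 that were lower (Bambi, Chrdl1 and both Ltbp4 genes), where 5.07% did.

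**Figure D2:**
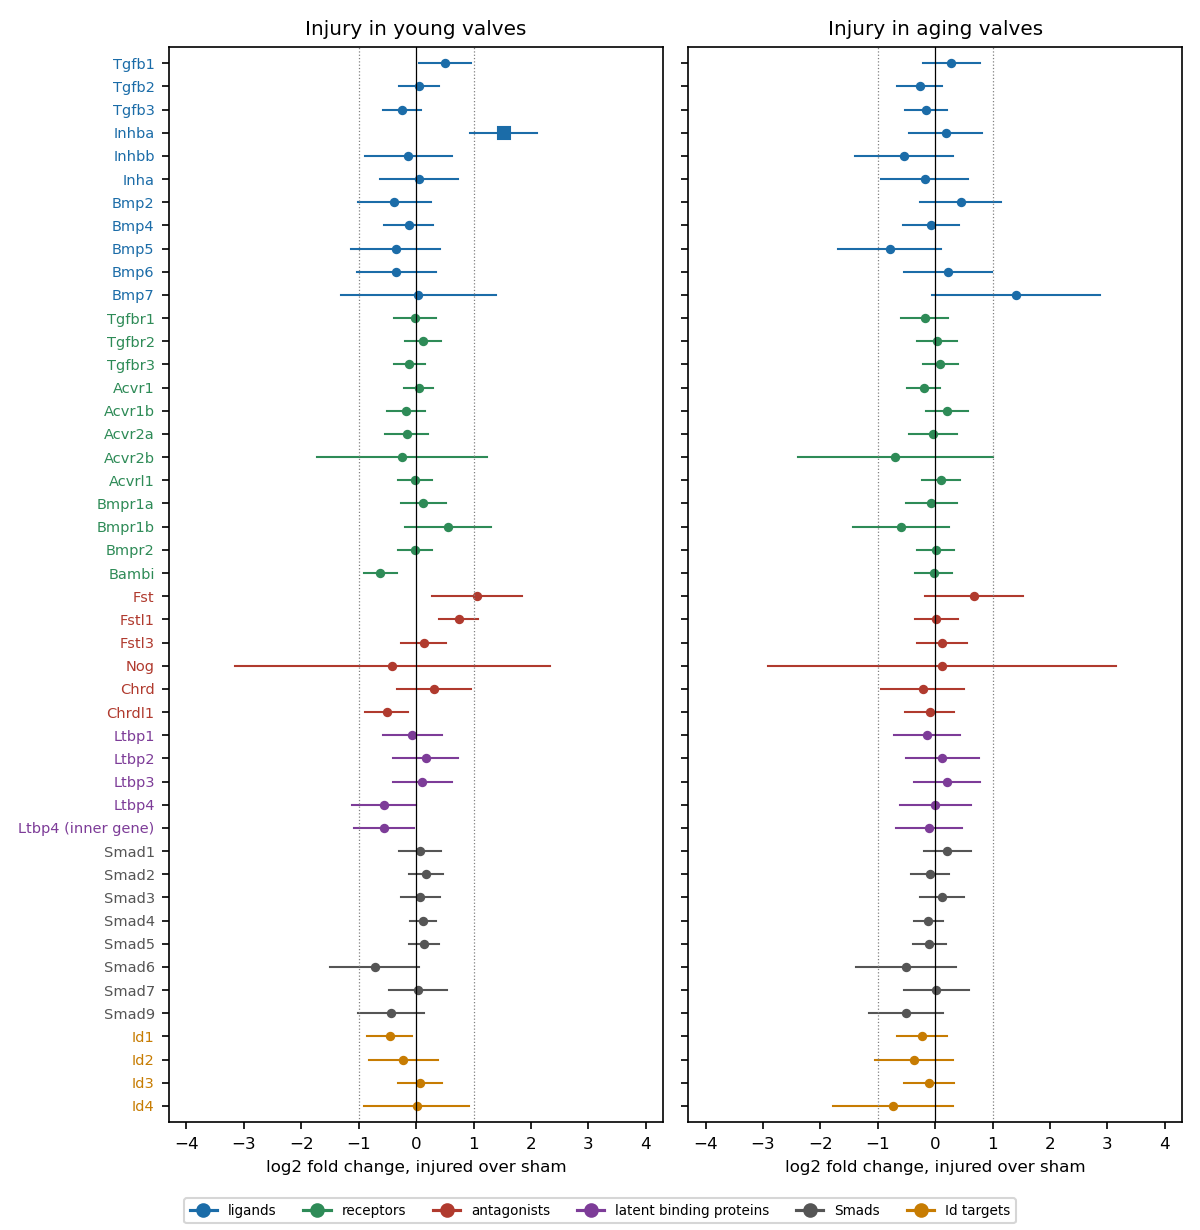
Log2 fold changes of injured over sham valves in young mice (left, 3 against 3) and aging mice (right, 2 against 3) for 46 of the 47 genes, coloured by role, with bars for the 95% interval and dotted lines at a 2-fold change. The square marks Inhba in young valves at 1.52, the only gene past both thresholds, and Grem1 is left out because it had 0 counts in both aging injured libraries.

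Inhba encodes the beta A subunit, a dimer of which is activin A, a ligand that signals through Smad2 and Smad3. The gene lies on chromosome 13 from 16011851 to 16027211 on the plus strand (mm10), with no overlapping gene that could add 5% to its counts. It stood at 14.9, 16.3 and 17.1 CPM in the young sham libraries and at 30.8, 71.9 and 36.1 CPM in the young injured ones. Every young injured valve was above every young sham valve, and young injured 2 stood far above the other 2. The group means were 16.1 ± 1.13 CPM (SD, n = 3) and 46.3 ± 22.4 CPM (SD, n = 3). The fold change was 2.88 (95% interval 1.91 to 4.32), a log2 fold change of 1.52 ± 0.27 with an adjusted p of 0.0474. Without young injured 2 the log2 fold change was 1.04 and the adjusted p 0.0572. The call was lost without young sham 1, 2 or 3, with adjusted p-values of 0.164, 0.221 and 0.124 at log2 fold changes of 1.47, 1.53 and 1.57. It was also lost when only the 2 young groups were fitted, at 1.52 ± 0.32 and an adjusted p of 0.243, and DESeq2 gave an adjusted p of 4.42e-05.

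In aging valves Inhba stood at 35.1, 42.2 and 41.7 CPM after sham surgery and at 47.01 and 43.1 CPM after injury. The aging groups did not overlap, but they differed by only 1.14-fold (95% interval 0.73 to 1.77; adjusted p = 0.933). All 3 young sham libraries were below all 8 others. That pattern, young sham libraries below the rest, held for 2.13% of all genes tested, and the opposite one, young sham libraries above the rest, held for 1.45%. Among the 47 genes Inhba alone showed the first and Bambi alone the second. The deposited RPKM of Inhba relative to that of Inhbb was 1.15 in young sham, 3.82 in young injured, 2.54 in aging sham and 4.25 in aging injured valves on average. Relative to Fst, which encodes the activin-binding protein follistatin, it was 2.01, 2.55, 3.41 and 2.39. Single libraries overlapped for Fst, at 1.32 to 2.91 in young sham, 2.165 to 2.83 in young injured, 2.57 to 3.99 in aging sham and 2.01 to 2.78 in aging injured valves. For Inhbb they ran from 0.712 to 1.65 in young sham and from 1.68 to 5.61 in young injured valves. These ratios have no test of their own.

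Marker genes of other cell types were read beside this result, and by edgeR 0 of them passed the thresholds after injury in young valves. The summed level of 10 fibroblast and valve interstitial markers was 11350 to 12640 CPM in young sham, 14050 to 17780 CPM in young injured, 8932 to 11250 CPM in aging sham and 10550 to 12620 CPM in aging injured libraries. For 10 monocyte and macrophage markers the ranges were 619 to 824, 672 to 1134, 694 to 968 and 1073 to 1077 CPM. Of these, 8 of 10 fibroblast and 10 of 10 macrophage markers were higher after injury in young valves, and 3 of each list had an unadjusted p under 0.05. Of all 19366 genes tested, 9983 were higher and 9379 lower, and 1780 had an unadjusted p under 0.05. All 7 mesothelial and epicardial markers were also higher, with a median log2 fold change of 0.83. All 7 Schwann cell markers (median -0.25), all 8 smooth muscle markers (median -0.34) and 11 of 12 cardiomyocyte markers (median -0.72) were lower. Of 12 endothelial markers 8 were lower and 4 higher (median -0.20), and 0 had an unadjusted p under 0.05. Young injured 2, the library with the highest Inhba, also had the highest summed level of 7 neutrophil markers, at 20.7 CPM against 2.08 to 8.09 CPM in the other 10, and 6 of those markers had 0 counts in at least 1 library. Except for the cardiomyocyte markers, the part of these markers in the result for Inhba was not tested. With the cardiomyocyte score of each library as a covariate Inhba kept its call, with a log2 fold change of 1.34 ± 0.28 and an adjusted p of 0.0935. With sex as a term, chosen after the data were seen, the values were 1.56 ± 0.26 and 0.0658, and a term marking the 3 libraries of fewest detected genes gave 1.47 ± 0.32 and 0.167, which is not a call.

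**Figure D3:**
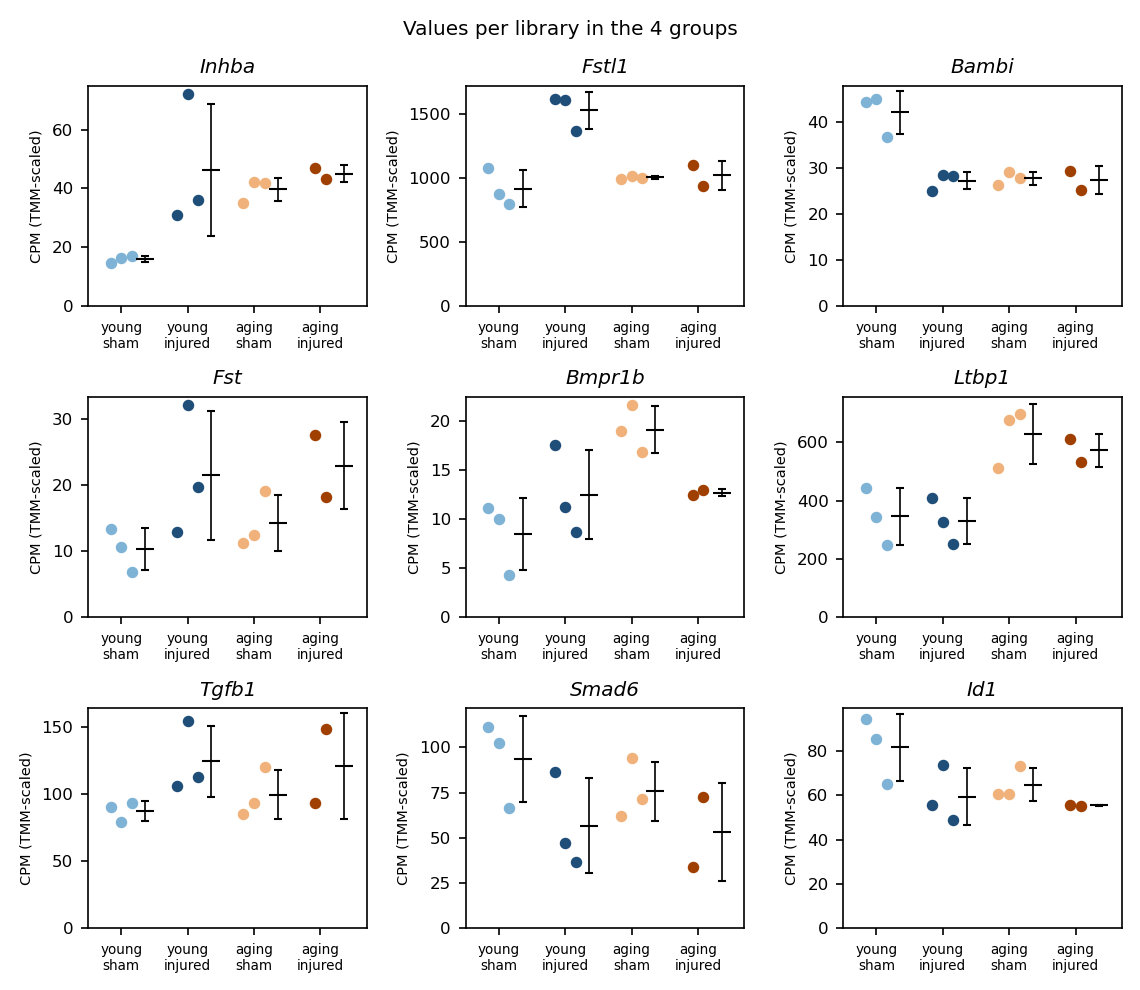
TMM-scaled CPM of 9 of the signalling genes, with 1 point per library in each of the 4 groups and a bar for the group mean ± SD (n = 3, and n = 2 for aging injured). Inhba is lowest and Bambi highest in young sham valves, Fstl1 is highest in young injured valves, and Bmpr1b and Ltbp1 are higher in aging sham than in young sham valves.

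Promoter sequences are shown for the gene that rose (Inhba), for the most abundant antagonist (Fstl1), whose adjusted p was also under 0.1, and for 2 Id genes as targets of BMP signalling (Id2 and Id3). Each window holds 250 bases before and 50 after a RefSeq transcription start in GRCm38.p6, 300 bases in all, read 5′ to 3′ on the strand of the gene. Capitals mark matches on either strand to GGCGCC, a GC-rich element of the type bound by Smads in BMP targets, or to CAGAC, a Smad-binding element. The windows are chr13:16011601-16011900 on the plus strand for Inhba, chr16:37776805-37777104 on the plus strand for Fstl1, chr12:25096043-25096342 on the minus strand for Id2 and chr4:136143572-136143871 on the plus strand for Id3.
Inhba: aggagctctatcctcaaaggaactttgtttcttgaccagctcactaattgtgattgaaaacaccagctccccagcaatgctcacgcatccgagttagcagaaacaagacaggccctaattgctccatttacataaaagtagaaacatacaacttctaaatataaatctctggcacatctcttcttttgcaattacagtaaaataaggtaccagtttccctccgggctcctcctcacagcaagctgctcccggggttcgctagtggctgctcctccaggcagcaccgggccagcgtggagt
Fstl1: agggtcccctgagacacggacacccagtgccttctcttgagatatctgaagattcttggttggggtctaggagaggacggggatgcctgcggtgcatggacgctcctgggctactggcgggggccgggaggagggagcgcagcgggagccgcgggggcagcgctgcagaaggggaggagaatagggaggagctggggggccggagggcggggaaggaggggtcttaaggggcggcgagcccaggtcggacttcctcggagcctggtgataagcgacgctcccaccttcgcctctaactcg
Id2: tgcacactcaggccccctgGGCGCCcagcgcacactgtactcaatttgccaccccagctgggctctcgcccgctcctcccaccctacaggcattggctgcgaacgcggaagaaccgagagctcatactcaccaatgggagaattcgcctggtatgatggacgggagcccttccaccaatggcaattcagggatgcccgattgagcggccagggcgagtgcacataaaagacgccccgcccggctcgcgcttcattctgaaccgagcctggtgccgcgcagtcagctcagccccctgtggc
Id3: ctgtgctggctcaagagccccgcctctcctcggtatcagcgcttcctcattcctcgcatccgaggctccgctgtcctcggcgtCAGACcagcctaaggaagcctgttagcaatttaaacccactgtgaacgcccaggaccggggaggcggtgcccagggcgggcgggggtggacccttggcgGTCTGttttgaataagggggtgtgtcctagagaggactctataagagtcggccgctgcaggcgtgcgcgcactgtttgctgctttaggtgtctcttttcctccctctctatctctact
Inhba and Fstl1 held 0 matches to either element, Id2 held 1 match to GGCGCC and Id3 held 2 matches to CAGAC. The Inhba window had a GC content of 47.7% and 7 CpG dinucleotides, and the Fstl1 window 66.7% and 21. RefSeq gave windows for 33 of the 46 symbols, 41 windows in all. GGCGCC occurred in 13 of these 41 (31.7%) and in 11.9% of all 32851 windows of the same length, and CAGAC in 19 of 41 (46.3%) and in 49.6%. Some genes have more than 1 window, and for Ltbp4 and Smad5 windows that hold GGCGCC overlap each other. The windows are therefore not all independent. The 41 windows were also richer in GC, with a median of 65% against 52.7%, and in CpG, with a median of 25 against 7. Matches to the 2 elements can overlap by at most 1 base. The RefSeq starts of Fstl1 and Id3 lie 182 and 325 bases inside the genes as the authors' files give them.

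The other ligands were not called after injury in young valves. Tgfb1, the TGF-beta isoform most tied to inflammation and repair, stood at 90.2, 79.2 and 93.1 CPM in young sham and 106, 155 and 112 CPM in young injured libraries. The groups did not overlap, and the fold change was 1.42 (95% interval 1.04 to 1.95; adjusted p = 0.468). In aging valves Tgfb1 stood at 85.2, 93.2 and 120.0 CPM after sham surgery and 93.3 and 149 CPM after injury, and there the groups overlapped. Tgfb3, the most abundant isoform, stood at 238, 177 and 177 CPM in young sham and 174, 179.5 and 145 CPM in young injured libraries, a ratio of 0.843 (95% interval 0.673 to 1.06). Bmp2, a BMP that drives osteogenic programmes, stood at 40.4, 40.4 and 77.6 CPM in young sham and 27.6, 39.96 and 54.4 CPM in young injured libraries, with 1 high library in young sham. In aging sham and aging injured libraries it stood at 29.3, 34.8 and 41.4 CPM and at 43.1 and 52.6 CPM. Its injured-to-sham ratio was 0.77 (95% interval 0.494 to 1.2) in young valves and 1.36 (95% interval 0.831 to 2.23) in aging valves, neither passing the threshold. Tgfb2, the isoform of cushion development, lay between 75.1 and 116 CPM over the 11 libraries, Inhbb between 13.8 and 44.9, Inha, the inhibin alpha subunit, between 4.12 and 8.71, Bmp4 between 25.0 and 44.2, and Bmp6 between 13.8 and 37.7. These 5 genes had log2 fold changes from -0.34 to 0.05 after injury in young valves, all uncalled. The log2 fold changes of the 11 ligands in young valves ran from -0.38 to 1.52, with 6 of 11 intervals inside 2-fold. Ligands of low abundance, Bmp5 at 1.96 to 7.41 CPM and Bmp7 at 0.276 to 2.45 CPM, had the widest intervals.

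Among the 7 extracellular antagonists, Fstl1, on chromosome 16 from 37776873 to 37836514 (mm10), stood at 1082, 874 and 799 CPM in young sham and at 1622, 1608 and 1366 CPM in young injured libraries. All 3 injured valves were above all 3 sham valves, with means of 1532 ± 144 CPM (SD, n = 3) and 918 ± 146 CPM (SD, n = 3). The log2 fold change was 0.74 ± 0.16, a fold change of 1.67 (95% interval 1.32 to 2.12) with an adjusted p of 0.0955, so it met the p threshold and not the fold threshold. In aging valves Fstl1 stood at 998, 1021 and 1001 CPM after sham surgery and 1105 and 942 CPM after injury. These 5 libraries lay close together, below every young injured library, and the aging injured-to-sham ratio was 1.02 (95% interval 0.781 to 1.32). Fstl1 is a product of fibroblasts, and summed fibroblast and valve interstitial markers were highest in the same 3 young injured libraries. Of these 10 markers, 2 (Col1a1 and Col1a2) were higher in young injured libraries without overlap with young sham, where 9.54% of all genes were. Dcn stood at 4579, 4608 and 4426 CPM in young sham and 3387, 4639 and 3556 CPM in young injured libraries. The part of these markers in the difference was not tested.

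Fst, which encodes follistatin, the high-affinity binder of activin, stood at 13.3, 10.7 and 6.94 CPM in young sham and 12.9, 32.1 and 19.7 CPM in young injured libraries. The lowest injured library lay within the sham range, and the fold change of 2.08 (95% interval 1.21 to 3.59) had an adjusted p of 0.342. In aging libraries Fst stood at 11.3, 12.5 and 19.1 CPM after sham surgery and 27.6 and 18.3 CPM after injury, again overlapping. Averaged over age its log2 fold change was 0.87 ± 0.26 (adjusted p = 0.22). Chrdl1, a chordin-like BMP antagonist on the X chromosome, stood at 68.9, 71.2 and 66.1 CPM in young sham and 35.7, 59.1 and 49.9 CPM in young injured libraries, at 68.9, 65.2 and 74.2 CPM in aging sham and at 57.5 and 72.4 CPM in aging injured ones. The young groups did not overlap, with an injured-to-sham ratio of 0.702 (95% interval 0.541 to 0.91; adjusted p = 0.335), and the aging groups overlapped. Fstl3, a follistatin-like activin binder, had 99.6, 62.7 and 62.8 CPM in young sham and 74.6, 92.3 and 80.3 CPM in young injured libraries, which overlapped. Chrd, which encodes chordin, lay between 10.2 and 25.1 CPM in the 11 libraries, and the gene Thpo overlaps it. Grem1, which encodes gremlin, and Nog were near the detection limit. Grem1 had 0, 48 and 2 counts in young sham, 0, 2 and 20 in young injured, 2, 8 and 7 in aging sham and 0 and 0 in aging injured libraries. In the libraries at 0, a count of 0 allows up to 3 counts, or 0.081 to 0.107 CPM. Nog had 0 to 46 counts per library. No fold change is given for Grem1.

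Of the 12 receptors, including Bambi, 0 rose or fell in any comparison, where 0% to 0.594% of all genes tested did. Bambi is a transmembrane pseudoreceptor that lacks a kinase domain and dampens TGF-beta and BMP signals. It stood at 44.3, 45.02 and 36.7 CPM in young sham and at 25.1, 28.5 and 28.2 CPM in young injured libraries, with no overlap. The log2 fold change was -0.62 ± 0.13, an injured-to-sham ratio of 0.649 (95% interval 0.531 to 0.793) with an adjusted p of 0.0955, under the p threshold but short of a 2-fold change. In aging libraries Bambi stood at 26.4, 29.1 and 27.8 CPM after sham surgery and at 29.4 and 25.2 CPM after injury. These 5 values fell within the range of the young injured libraries or just above it, and the aging injured-to-sham ratio was 0.983 (95% interval 0.786 to 1.23). 

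Tgfbr2, the receptor that binds TGF-beta first, stood at 352, 337 and 299 CPM in young sham, 384, 388 and 308 in young injured, 309, 362 and 383 in aging sham and 355 and 365 in aging injured libraries. Injured and sham libraries overlapped at both ages, and its injured-to-sham ratio had a 95% interval of 0.879 to 1.36 in young and 0.804 to 1.3 in aging valves. Acvr1 is the BMP type I receptor also called ALK2. It stood at 55.6, 51.5 and 54.5 CPM in young sham and 54.5, 55.2 and 56.8 CPM in young injured libraries. In aging valves Acvr1 stood at 49.9, 49.213 and 58.7 CPM after sham surgery and at 49.208 and 42.3 CPM after injury. The type I receptors for TGF-beta and activin, Tgfbr1 and Acvr1b, lay between 89.1 and 147 CPM and between 32.1 and 47.4 CPM over the 11 libraries. Acvrl1, the endothelial type I receptor ALK1, lay between 59.7 and 82.8 CPM, and the BMP receptors Bmpr1a and Bmpr2 between 151 and 264 CPM and between 139 and 184 CPM. Betaglycan, the co-receptor encoded by Tgfbr3, lay between 117 and 154 CPM, and the activin type II receptors Acvr2a and Acvr2b between 17.8 and 26.1 and between 0.409 and 2.56 CPM. None of these ranges set injured libraries apart from sham libraries in young valves. Over the 12 receptors the log2 fold changes in young valves ran from -0.62 to 0.56, and the interval lay inside 2-fold for 10 of them, all but Acvr2b and Bmpr1b, the lowest in RPKM. Orc4 overlaps Acvr2a and Gm43422 overlaps Tgfbr3, so their counts may include reads of the neighbours. 

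The latent binding proteins hold TGF-beta in the extracellular matrix, and Ltbp4 was the most abundant of them. The larger Ltbp4 gene, on chromosome 7 from 27305136 to 27337692 on the minus strand (mm10), stood at 3159, 2420.3 and 2228 CPM in young sham and 2153, 1852 and 1296 CPM in young injured libraries. The groups did not overlap, with an injured-to-sham ratio of 0.679 (95% interval 0.462 to 0.998; adjusted p = 0.539). In aging libraries the larger gene stood at 1929.8, 2328 and 2564 CPM after sham surgery and 1673 and 2877 CPM after injury, with the 2 injured valves on either side of the sham range. The nested gene, from 27311715 to 27333604, stood at 1799.8, 1427 and 1319 CPM in young sham, 1237, 1083 and 766 in young injured, 1127, 1386 and 1532 in aging sham and 963 and 1539.9 in aging injured libraries. It ran parallel to the larger one, and since they overlap on the same strand the 2 are not independent observations. In RPKM, the larger Ltbp4 gene took 65.8% of the summed 4 proteins on average in young sham and 54.7% in young injured valves. Ltbp3, which chaperones the secretion of latent TGF-beta, took 18.8% and 24.9%. The nested Ltbp4 gene was left out of all these shares. Ltbp3 itself stood at 730.0, 542 and 518 CPM in young sham, 714, 719.5 and 496 in young injured, 501, 579 and 666 in aging sham and 493 and 852 in aging injured libraries, with overlap between all groups. Ltbp2, which binds elastic fibres but not TGF-beta, lay between 377 and 762 CPM, with the highest value in young injured 2.

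None of the 8 Smads was called in any comparison, where 0% to 0.594% of all genes tested were. Smad4, the shared partner, stood at 59.4, 64.2 and 62.2 CPM in young sham, 65.8, 68.6 and 67.5 in young injured, 68.9, 71.3 and 61.3 in aging sham and 63.8 and 60.1 in aging injured libraries. The young groups did not overlap, yet the difference was only 0.12 ± 0.10 on the log2 scale. Smad2 and Smad3, which carry TGF-beta and activin signals, lay between 24.4 and 33.6 CPM and between 58.4 and 85.6 CPM over the 11 libraries. Smad1 and Smad5, which carry BMP signals, lay between 27.03 and 41.6 CPM and between 70.6 and 92.6 CPM, and Smad7, the inhibitory Smad of the TGF-beta branch, between 54.5 and 101 CPM. Their log2 fold changes after injury in young valves ran from 0.03 to 0.17. Smad6, an inhibitory Smad induced by BMP and by flow in endothelium, varied more, at 111, 103 and 66.8 CPM in young sham and 86.3, 47.2 and 36.4 CPM in young injured libraries. In aging valves it stood at 62.3, 93.99 and 71.4 CPM after sham surgery and 34.1 and 72.4 CPM after injury, and in both ages the groups overlapped. The injured-to-sham ratio of Smad6 was 0.605 (95% interval 0.355 to 1.03) in young and 0.702 (95% interval 0.384 to 1.28) in aging valves. Smad9, a BMP-activated Smad, stood at 31.7, 30.1 and 17.4 CPM in young sham, 27.03, 15.2 and 16.1 in young injured, 31.6, 32.2 and 27.5 in aging sham and 23.2 and 19.5 in aging injured libraries. Its ratio was 0.736 in young and 0.701 in aging valves, with an adjusted p of 0.383 averaged over age. The summed level of 12 endothelial markers was lowest in young injured 1, at 573 CPM, the young injured library with the highest Smad6. This sum was 922, 967 and 1362 CPM in young sham libraries, and 1239 and 1214 CPM in young injured 2 and 3. The part of these markers in the spread of Smad6 was not tested.

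Of the 4 Id genes, inhibitors of differentiation that BMP receptors induce through Smad1 and Smad5, 0 were called in any comparison. Among all genes tested, 0% to 0.594% were called, depending on the comparison. Id1 stood at 94.6, 85.5 and 65.1 CPM in young sham and 55.7, 73.6 and 49.1 CPM in young injured libraries, which overlapped, with a ratio of 0.727 (95% interval 0.555 to 0.954; adjusted p = 0.441). In aging sham and aging injured libraries Id1 stood at 60.5, 60.7 and 73.3 CPM and at 55.7 and 55.3 CPM, which did not overlap. Id3, the most abundant, stood at 155, 144 and 137 CPM in young sham, 186, 160.1 and 109 in young injured, 146, 165 and 178 in aging sham and 147 and 155 in aging injured libraries, with overlap throughout. Id2 and Id4 were spread widely among young libraries. Id2 stood at 113, 57.5 and 48.1 CPM in the young injured and 90.5, 94.1 and 70.6 CPM in the young sham libraries, and at 101, 113 and 92.6 CPM in aging sham and 90.9 and 66.98 CPM in aging injured ones. Id4 stood at 38.9, 25.5 and 14.7 CPM in young injured and 38.5, 29.6 and 10.4 CPM in young sham libraries, and at 28.4, 30.7 and 25.04 CPM in aging sham and 17.4 and 16.4 CPM in aging injured ones. Young sham 3 and young injured 3 were the lowest libraries for Id4 and among the lowest for Bmpr1b, Ltbp1 and Smad9. The same 2 libraries had the highest summed cardiomyocyte markers, at 31230 and 31160 CPM, and the lowest smooth muscle markers, at 8539 and 7297 CPM. The part of these markers in the spread was not tested.

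**Figure D4:**
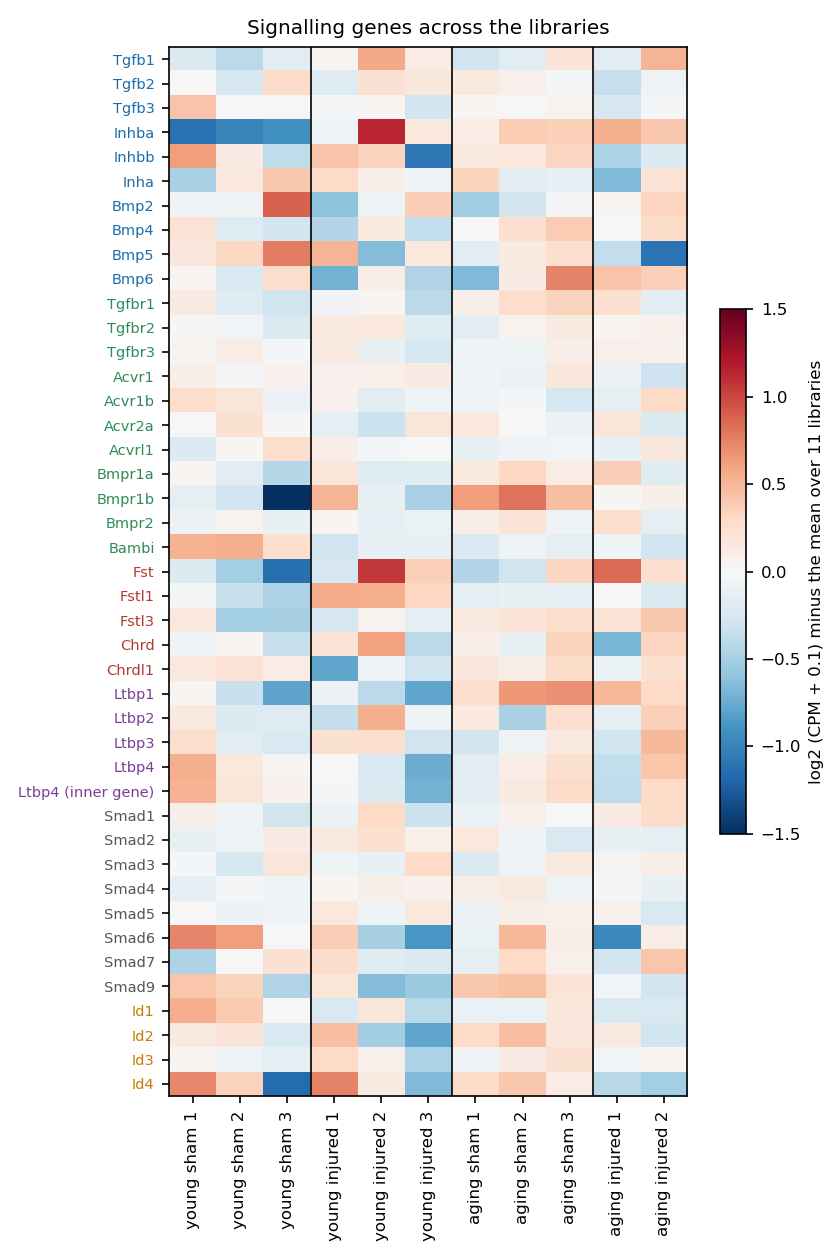
Log2 (CPM + 0.1) of the 43 signalling genes with a mean above 2 CPM (rows, coloured by role) in the 11 libraries (columns, split by group), each minus its mean over the libraries, on a colour scale from -1.5 to 1.5. Inhba is below its mean in the 3 young sham libraries, Bambi is above it there, and young sham 3 and young injured 3 are low for Id4, Ltbp1 and Smad9.

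In aging valves 0 of the 47 genes rose or fell after injury by edgeR, against 0% of all genes tested, and 0 of the 47 had an unadjusted p under 0.05, against 1710 of all genes. DESeq2 called 329 of all genes, and DESeq2 and limma-voom both called 0 of the 47. The median log2 fold change was -0.07 for the 47 genes and -0.01 for all genes tested, with 20 higher and 27 lower. The 95% interval lay inside 2-fold for 34 of the 47. With 2 injured against 3 sham libraries, groups that do not overlap are common: 11.1% of all genes were higher and 16.7% lower in that way. Of the 47, 4 were higher without overlap (Inhba, Bmp2, Bmp7 and Smad1) and 11 lower (Tgfb2, Tgfb3, Inhbb, Bmp5, Acvr1, Bmpr1b, Grem1, Smad9, Id1, Id2 and Id4). Acvr1 barely missed an overlap, with 49.208 CPM in aging injured 1 and 49.213 CPM in aging sham 2. Grem1 rests on 0 counts in both aging injured libraries and 2, 8 and 7 counts in the aging sham ones.

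The gene with the smallest p in this comparison was Bmp7, a BMP of the developing kidney, which stood at 0.994, 0.894 and 0.708 CPM in aging sham and 2.13 and 2.45 CPM in aging injured libraries, and at 0.754, 0.889 and 0.276 CPM in young sham and 0.783, 0.88 and 0.314 CPM in young injured ones. These values rest on 7 to 84 counts per library. Its fold change in aging valves was 2.64 (95% interval 0.958 to 7.28; adjusted p = 0.59). Bmp5 stood at 3.84, 4.75 and 5.13 CPM in aging sham and 3.34 and 1.96 CPM in aging injured libraries, a ratio of 0.579 (95% interval 0.311 to 1.08), and at 4.87, 5.37 and 7.41 CPM in young sham and 6.21, 2.73 and 4.84 CPM in young injured ones. All 4 Id genes had log2 fold changes under 0, from -0.73 to -0.11. Both aging injured mice were female, as were 2 of the 3 aging sham mice, and both libraries were among the 3 with the fewest detected genes. With a term for sex or for those 3 libraries, both chosen after the data were seen, 0 of the 47 genes were called.

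The injury effects in the 2 ages were compared directly by the interaction term. It called 0 of the 47 genes, against 0% of all genes tested by edgeR, where 1523 of all genes and 4 of the 47 had an unadjusted p under 0.05. The 4 were Inhba, Bambi, Fstl1 and Bmpr1b. For Inhba the aging effect minus the young effect was -1.34 ± 0.40 on the log2 scale (adjusted p = 0.5). For Fstl1 it was -0.71 ± 0.23 and for Bambi 0.60 ± 0.20, with an adjusted p of 0.519 for both. DESeq2 called 174 of all genes by this term and 0 of the 47. Injury averaged over age called 0 of the 47, against 0.594% of all genes tested (84 higher and 31 lower). There Inhba had a log2 fold change of 0.85 ± 0.20 and an adjusted p of 0.101.

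Age in sham valves was compared between the 3 aging and 3 young sham libraries, and it shares the young sham libraries with injury in young valves, so the values of the 2 comparisons are not independent. By edgeR 0 of the 47 genes were called, against 0.0258% of all genes (4 higher and 1 lower), and 5 had an unadjusted p under 0.05, against 1779 of the 19366 genes tested. The median log2 fold change was 0.07 over the 47 and 0.02 over all genes. Without overlap, 4 were higher in aging valves (Inhba, Bmpr1a, Bmpr1b and Ltbp1), where 11.8% of all genes were, and 1 was lower (Bambi), where 9.08% were. Inhba was 2.47-fold higher in aging sham valves (95% interval 1.64 to 3.7; adjusted p = 0.218). DESeq2 and limma-voom with quality weights called that difference, with adjusted p-values of 0.00309 and 0.0203, as did edgeR on the 2 sham groups alone (0.0532) and without young injured 2 (0.0242). EdgeR did not call it with other scaling, without the filter, or with a replicate block, the cardiomyocyte score or sex as a term. When each library was left out in turn, its adjusted p ran from 0.0242 to 0.921 by edgeR. Bambi had an aging-to-young ratio of 0.66 (95% interval 0.54 to 0.807; adjusted p = 0.232). 

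Bmpr1b, a BMP type I receptor, stood at 11.1, 10.03 and 4.26 CPM in young sham and 18.9, 21.6 and 16.8 CPM in aging sham libraries, and at 17.5, 11.3 and 8.67 CPM in young injured and 12.5 and 12.9 CPM in aging injured ones. The sham groups did not overlap, and the fold change was 2.25 (95% interval 1.34 to 3.78; adjusted p = 0.38 by edgeR, 0.0749 by DESeq2 and 0.032 by limma-voom). Ltbp1, which targets latent TGF-beta to fibrillin microfibrils, stood at 443, 345 and 249.5 CPM in young sham and 511, 678 and 697 CPM in aging sham libraries, again without overlap. After injury it stood at 409, 328 and 252 CPM in young and 612 and 532 CPM in aging libraries, which did not overlap either. The aging-to-young ratio of Ltbp1 was 1.82 (95% interval 1.27 to 2.6; adjusted p = 0.358) in sham and 1.74 (95% interval 1.17 to 2.57; adjusted p = 0.262) in injured valves. Its share of the latent binding protein RPKM averaged 5.34% in young sham, 6.31% in young injured, 10.2% in aging sham and 9.63% in aging injured valves. Fstl3 stood at 97.9, 102 and 107 CPM in aging sham and 103 and 118 CPM in aging injured libraries, with an aging-to-young ratio in sham valves of 1.36 (95% interval 1.04 to 1.79; adjusted p = 0.507). Smooth muscle markers, 8 in number, summed to 8539 to 18820 CPM in young sham and 20250 to 24320 CPM in aging sham libraries, and 7 mesothelial markers to 19.0 to 68.3 and 128 to 233 CPM. All 10 monocyte and macrophage markers were higher in aging sham libraries (log2 median 0.41). All 9 T and B cell markers were higher too (1.38), most of them with 0 counts in at least 1 library. All 12 cardiomyocyte markers were lower (log2 median -1.24). They summed to 16900 to 31230 CPM in young sham and 7195 to 19300 CPM in aging sham libraries. Of all 19366 genes tested, 10130 were higher and 9233 lower in aging sham valves. With the cardiomyocyte score as a covariate none of the signalling genes was called for age in sham valves. The part of the other markers in the age differences was not tested.

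Age in injured valves called 0 of the 47 genes, against 0.062% of all genes (9 higher and 3 lower), and 4 had an unadjusted p under 0.05, against 2425 of the 19366 genes tested. Without overlap, 4 were higher in aging injured than in young injured valves (Bmp6, Bmp7, Fstl3 and Ltbp1), where 9.89% of all genes were, and 4 were lower (Acvr1, Fstl1, Smad2 and Smad4), where 14.5% were. Fstl1 had an aging-to-young ratio of 0.668 after injury (95% interval 0.511 to 0.873; adjusted p = 0.238) and of 1.1 after sham surgery (95% interval 0.866 to 1.39). Inhba had a ratio of 0.973 after injury (95% interval 0.624 to 1.52). For Bmp7 the ratio was 3.46 (95% interval 1.25 to 9.58; adjusted p = 0.321).

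Other genes of the pathway were read from 6 lists. Of 20 TGF-beta responsive genes tested, 2 rose and 0 fell in injured young valves, where 15 were higher and 5 lower and the median was 0.45 on the log2 scale. Over all genes tested in that comparison 0.418% were called and the median was 0.01. The 2 were Adam12 and Tnc. Tenascin C, the product of Tnc, is a matrix glycoprotein of wounds, and Adam12 is a metalloproteinase of activated mesenchymal cells. Tnc stood at 82.7, 69.3 and 51 CPM in young sham and 142, 222 and 187 CPM in young injured libraries (2.71-fold, adjusted p = 0.0321), and at 56.1, 37.6 and 53.2 CPM in aging sham and 74.98 and 95.2 CPM in aging injured ones. Adam12 stood at 0.986, 0.92 and 2.05 CPM in young sham and 4.08, 15.3 and 15.3 CPM in young injured libraries (8.8-fold, adjusted p = 0.0474), and at 2.43, 1.26 and 1.38 CPM in aging sham and 7.35 and 5.61 CPM in aging injured ones. Both also rose with injury averaged over age, with adjusted p-values of 0.0226 and 0.0227. For both genes injured libraries were above sham libraries without overlap at either age. Among all genes tested, 9.54% were higher in that way in young and 11.1% in aging valves.

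Of 14 BMP responsive genes, 0 were called in young valves, with a median of -0.20, 3 higher and 11 lower. Hey1, a transcriptional repressor that Notch and BMP signals induce, stood at 19.4, 15.3 and 18.4 CPM in young sham and 13.3, 8.89 and 11.7 CPM in young injured libraries (ratio 0.638, adjusted p = 0.27). Of 23 other extracellular modulators tested, 1 rose (against 0.418% of all genes called), Fbn1, which encodes fibrillin 1, the microfibril protein that anchors latent TGF-beta complexes. Fbn1 stood at 269, 229.6 and 358 CPM in young sham and 559, 569 and 912 CPM in young injured libraries (2.38-fold, adjusted p = 0.0474), and at 303, 365 and 339 CPM in aging sham and 444 and 434 CPM in aging injured ones. Of 13 other receptors and co-receptors 0 were called. Cd109, a TGF-beta co-receptor, stood at 75.3, 71.3 and 74.8 CPM in young sham and 109.9, 117 and 100.1 CPM in young injured libraries, a fold change of 1.48 (adjusted p = 0.132). None of 21 intracellular regulators was called. Dab2, an adaptor that links TGF-beta receptors to Smads, had a ratio of 1.14 (adjusted p = 0.789). None of 17 other ligands tested was called, and the one with the smallest p averaged over age, Amh, had 0 counts in both aging injured libraries and at most 1.28 CPM elsewhere. In aging valves 0 genes of the 6 lists were called, and the medians ran from -0.38 for other ligands to 0.24 for the TGF-beta responsive genes.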

How the data were processed

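The authors deposited raw gene counts with Ensembl identifiers and no normalization, and RPKM values, counts per gene length and library size, for part of the genes. TopHat2 2.1.0 and the mm10 build are named in the submitters' processing notes. What program counted the reads, on which strand and with which annotation is not given in the sources used here, and reads of overlapping genes are therefore of uncertain origin. In the deposited counts 1 library column matched no sample label and was not used. Low RPKM values can stand at a minimum (0.133 for Nog). 

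Each label gives 1 individual mouse, and libraries of the same group differed by more than sampling noise (chi-square per degree of freedom 16.9 to 188 over 10 pairs). Genes were kept by filterByExpr (minimum count 10), scaled by TMM and tested by quasi-likelihood in edgeR 4.0.16 (R 4.3.3), with all 11 libraries in 1 fit of 4 group means and no covariate (common biological coefficient of variation 0.377). P-values were adjusted by Benjamini-Hochberg over all genes tested, and SE was taken as the absolute log2 fold change over the square root of F. DESeq2 1.42.0, limma 3.58.1 (voom with quality weights), other scaling and filters, a replicate block, covariates and leaving out each library were alternatives. The script was tested on simulated data.

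The genes and lists were chosen with earlier results of these data known. Values are given per library for genes called in any comparison, the 2 with the smallest p in each role for injury at either age and for age in sham valves, and the most abundant gene of each role. From each pathway list up to 5 called genes per comparison are named, or otherwise the 1 with the smallest p for injury averaged over age. Deviations from the group mean were correlated over 0.1 in 2 of 15 same-numbered pairs of libraries, against 3 of 30 pairs with different numbers. The highest correlation, 0.208, was between young sham 3 and young injured 3. No label pairs the mice, and the numbers were not treated as pairs.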

Additional observations from a re-analysis of the deposited data

How the results depend on the processing

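The count of 1 gene called after injury in young valves was 0 when only the 2 groups compared were fitted, 0 with a term for the 3 libraries with fewest detected genes, 3 by adjusted p alone (2 higher and 1 lower), and 0 to 1 when each library was left out. It was lost without young sham 1, 2 or 3. The count of 0 for age in sham valves was 2 by DESeq2 and 2 by limma-voom with quality weights (Inhba and Bmpr1b), 1 when only the 2 groups were fitted, and 0 to 1 when each library was left out, with the 1, Inhba, called without young injured 2. The cause was not tested. In the other 4 comparisons 0 of the 47 genes were called under every alternative run, and no direction of a called gene reversed. With a replicate block Inhba in young valves had a log2 fold change of 1.47 ± 0.25 and an adjusted p of 0.0807, and the block changed no call among the 47 genes. Without the fold threshold, Fstl1 and Bambi had adjusted p-values of 0.13 and 0.174 with the replicate block and 0.128 and 0.183 with sex as a term.

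Counts over all genes moved more. For injury in young valves, 81 became 268 by DESeq2, 376 by limma-voom, 11 with the 2 groups alone, 43 with the term for the 3 libraries, and 16 to 447 without 1 library. For injury in aging valves, 0 became 329 by DESeq2, 3 with that term, 1 without the filter and 0 to 261 without 1 library. For age in sham valves, 5 became 200, 811, 13 and 1 under the first 4 of these settings, 14 without the filter, 2 with the cardiomyocyte covariate, 3 with sex as a term and 1 to 10 without 1 library. For age in injured valves, 12 became 599, 1, 0 and 104 under those 4, 38 without the filter, 41 with the cardiomyocyte covariate, 7 with sex, 4 with the block and 3 to 429 without 1 library. The interaction went from 0 to 174 by DESeq2. For injury averaged over age, 115 became 402 by DESeq2, 60 by limma-voom, 288 with the term, 60 with the block, 73 with sex and 38 to 284 without 1 library. With 3 or 2 mice per group, intervals of low genes such as Nog, Grem1 and Acvr2b were too wide to show a 2-fold change.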
